A study of Mus musculus with 4 samples.

Results

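Oxidative phosphorylation genes encode the subunits of the 4 respiratory complexes and of ATP synthase (complex V) in the inner mitochondrial membrane. The genes described here were the symbols of the annotation that follow the common naming of such subunits (mt-Nd, mt-Cytb, mt-Co and mt-Atp for the mitochondrial genome; Nduf with a subunit letter and number, Sdh, Uqcr, Cox4 to Cox8 and Atp5 for the nuclear genome) and had at least 1 UMI in each of the 4 pools studied. Of 28692 genes in the files, 96 symbols matched and 93 met both conditions, 13 of them mitochondrial and 80 nuclear. Cox7b2 (4, 0, 5 and 2 UMIs), Cox8b (1 UMI in all) and Cox8c (no UMI) were left out. The nuclear genes divided into 36 of complex I, 4 of complex II, 8 of complex III, 15 of complex IV and 17 of complex V by symbol, and they lay on 19 chromosomes, with 8 on chromosome 7 and 3 on X. Symbol and protein do not match everywhere. Ndufa4 is counted with complex I although its protein is known as a subunit of complex IV, and Atp5s and Atp5sl are not core subunits of ATP synthase. Cox7a2l encodes a factor known for the joining of complexes III and IV, and whether it does so in these mice was not tested. In turn, Cyc1 (cytochrome c1 of complex III) and Ndufab1 (complex I) encode subunits under other kinds of symbol, did not match, and are counted below with the electron carriers.

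The cells were hematopoietic stem and progenitor cells (HSPCs) sorted from mouse bone marrow as Lin-Sca1+cKit+Flt3- and captured with 10x v2 3′ chemistry, which counts each captured transcript molecule once as a UMI. All animals were male C57BL/6-CD45.2 mice, and neither a transgene nor a treatment is named for any group. Young mice were 2 to 3 months old and aged mice, labelled old, 17 to 18 months. Each age had a pool A, captured and sequenced at the HalioDX facility, and a pool B from TGML (platforms A and B below), and the letters also mark separate batches of mice. The young pools contained 2 (A) and 3 (B) mice, the aged ones 3 (A) and 2 (B), so that each age had 2 pools of different animals, a platform was shared by 1 pool of each age, and the mice within a pool could not be told apart. Titles and source names gave the age. In the free-text descriptions 2 pools, young B and aged A, carry the opposite age. Paired values below are given as (young A, B) and (aged A, B). Genes widely known to be higher in aged stem cells followed the titles: Nupr1 stood at 12.8 and 20.7 CPM (counts scaled to 1000000 UMIs) (young A, B) and at 372 and 550.0 CPM (aged A, B), and Vwf at 9.11 and 8.72 CPM against 63.4 and 66.6 CPM.

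Within each pool, cells whose log UMI count lay within 2 SD of the mean were kept, 14915 of 15566 barcodes, with 5189 and 2244 cells (young A, B) and 3328 and 4154 (aged A, B). These held 16399999 to 36446168 UMIs per pool and a median of 5674 to 6719 UMIs per cell. Pools shared 8 to 26 kept barcodes, about the number that chance would give for barcodes drawn from one list (10.1 to 29.2). The series design aimed at 45000 reads per cell in young pool A and aged pool B and at 130000 in young pool B and aged pool A, so that read depth ran across age and across platform. Kit and Ly6a (Sca1), on which the cells were sorted, stood at 71.7 to 164 and 164 to 355 CPM. Flt3, on which they were sorted as negative, stood at 48.0 CPM in young pool A and at 2.4 to 15 CPM in the others. Markers of B and plasma cells (10 genes) summed to 116 and 105 CPM (young A, B), with 2 of them at 0 in each, and to 1313 and 354 CPM (aged A, B), with none at 0. Stromal and endothelial markers (8 genes) summed to 38.9 to 87.5 CPM, with Col3a1 at 0 in every one.

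Electrons from NADH enter at complex I (NADH dehydrogenase) and those from succinate at complex II, pass through complex III (cytochrome bc1) and cytochrome c to complex IV (cytochrome c oxidase), which reduces oxygen. Complexes I, III and IV pump protons, and complex V lets them flow back to make ATP. The mitochondrial genome encodes core subunits of complexes I, III, IV and V, complex II is wholly nuclear, and the remaining subunits are made in the cytosol and imported. Quiescent hematopoietic stem cells are known for low reliance on oxidative phosphorylation and for a shift towards it when they divide and differentiate, and factors of the NRF1, ETS (NRF2/GABP) and YY1 types are known regulators of nuclear subunit genes.

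Upstream sequences of 5 nuclear genes named in the results below are printed. Whether their letters bear on the differences between cell classes was not tested. Cox6b2 had the largest difference in mitotic cells, Uqcrh was lower there, and Cox6a1, Ndufa11 and Atp5l hold the NRF1-type letters that stood more often in these genes than in all genes. Each is the 250 bases before the RefSeq transcript start (GRCm38.p6), 5′ to 3′ on the gene's own strand. Capitals mark an NRF1-type run (CGCATGCGC or GCGCATGCG), an ETS-type run (CCGGAAGT), a YY1-type run (AAGATGGCG) or a TATA box (TATAAA) on either strand, and the 2 spellings of the NRF1-type run can overlap. The first stretch holds none of these letters, and none of the 5 holds the YY1-type run.

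Cox6b2, chr7:4753095-4753344, minus strand: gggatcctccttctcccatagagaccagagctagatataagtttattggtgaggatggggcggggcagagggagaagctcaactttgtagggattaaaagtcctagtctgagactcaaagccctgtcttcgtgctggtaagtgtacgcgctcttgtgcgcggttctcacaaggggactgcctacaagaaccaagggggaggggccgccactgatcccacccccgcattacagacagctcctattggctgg
Cox6a1, chr5:115348959-115349208, minus strand: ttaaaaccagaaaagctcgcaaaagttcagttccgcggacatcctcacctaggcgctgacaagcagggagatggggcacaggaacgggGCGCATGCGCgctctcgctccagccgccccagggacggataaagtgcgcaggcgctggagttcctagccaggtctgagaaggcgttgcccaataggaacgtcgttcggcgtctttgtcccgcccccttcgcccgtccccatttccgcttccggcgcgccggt
Ndufa11, chr17:56717512-56717761, plus strand: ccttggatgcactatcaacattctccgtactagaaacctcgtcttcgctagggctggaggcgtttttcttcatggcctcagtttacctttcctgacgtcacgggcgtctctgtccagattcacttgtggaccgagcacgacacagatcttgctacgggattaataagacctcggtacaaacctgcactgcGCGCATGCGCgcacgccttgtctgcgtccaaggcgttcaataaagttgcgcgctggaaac
Atp5l, chr9:44920743-44920992, minus strand: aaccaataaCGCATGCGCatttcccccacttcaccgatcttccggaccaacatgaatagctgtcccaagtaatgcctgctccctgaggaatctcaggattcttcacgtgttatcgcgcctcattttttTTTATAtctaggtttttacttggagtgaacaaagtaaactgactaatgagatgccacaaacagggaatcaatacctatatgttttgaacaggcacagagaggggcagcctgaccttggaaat
Uqcrh, chr4:116075071-116075320, minus strand: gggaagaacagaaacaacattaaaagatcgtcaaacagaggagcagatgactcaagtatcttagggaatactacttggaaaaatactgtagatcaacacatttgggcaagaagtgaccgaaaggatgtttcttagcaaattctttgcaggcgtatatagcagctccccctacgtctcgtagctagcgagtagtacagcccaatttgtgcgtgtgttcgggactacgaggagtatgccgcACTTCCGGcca

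A RefSeq start was found for 67 of the 80 nuclear genes, and windows of 300 bases (250 before to 50 after each start) were searched on both strands. NRF1-type letters stood in 8 of 67 genes (11.9%), against 1.95% of 27025 genes with a window. YY1-type letters also stood in 8 (11.9%), against 1.64%, and ETS-type letters in 5 (7.46%), against 4.31%. TATA boxes were found in 5 (7.46%), against 15.7%, CCAAT boxes (CCAAT) in 30 (44.8%), against 41.1%, and GC boxes (GGGCGG) in 27 (40.3%), against 38.2%. These are matches of letters and not sites of binding. The 27025 genes include many without a UMI in these pools, and no background matched for expression or base content was compared. Whether the differences are particular to this set was therefore not tested.

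Summed, the nuclear genes of the set took a smaller share of all UMIs in the aged pool than in the young pool of each platform. The mitochondrial genes took a larger one as a sum, and mt-Co1, mt-Co3 and mt-Atp6 made up 65.0% of their mean CPM. In the cells kept, the ages overlapped across platforms. The 80 nuclear genes together held 2.53% and 2.81% of UMIs (young A, B) and 2.31% and 2.59% (aged A, B). Aged minus young was -0.224 percentage points on platform A and -0.214 on platform B, ratios of 0.912 and 0.924, yet aged pool B lay above young pool A, so that the ages overlapped (exact permutation p = 0.67, two-sided, 2 pools against 2, for which the smallest possible p is 0.33). The 13 mitochondrial genes held 3.01% and 2.69% (young A, B) and 3.37% and 3.00% (aged A, B). Here aged minus young was 0.36 and 0.31 percentage points, a ratio of 1.12 on each platform, and aged pool B lay just below young pool A (exact permutation p = 0.67). With all barcodes, without the 2 SD filter, aged minus young was -0.284 (nuclear) and 0.348 (mitochondrial) percentage points. There the ages did not overlap for either share (exact permutation p = 0.33 for each), so the overlap depended on the filter. These permutation tests do not use the platform. With ages swapped within platforms only, an alternative added after the data were seen, p was 0.5 for each share, the smallest that 2 pairs allow, so the design could not call differences that were nearly equal on both platforms. Nuclear UMIs per mitochondrial UMI stood at 0.841 and 1.05 (young A, B) and 0.684 and 0.866 (aged A, B), lower with age on each platform and again overlapping between ages (exact permutation p = 0.67).

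Several other measures also differed between the pools. Cycling cells, called from markers of mitosis and replication as described below, made up 35.7% and 31.0% (young A, B) and 18.9% and 19.3% (aged A, B). Ribosomal protein genes held 31.5% and 35.5% of UMIs (young A, B) and 28.4% and 36.2% (aged A, B), higher on platform B at each age, as were the nuclear shares above. With age the ribosomal share was lower on platform A and higher on platform B. The mitochondrial share is also a usual measure of cell damage. In pooled cells, fewer cells of a type and less RNA per cell cannot be told apart, so the shares were recomputed within cell classes. In non-cycling cells alone, the nuclear share was 2.31% and 2.57% (young A, B) and 2.17% and 2.42% (aged A, B), with aged to young ratios of 0.94 and 0.942. In mitotic cells it was 2.88% and 3.27% (young A, B) and 2.87% and 3.30% (aged A, B), and the ratios were 0.998 and 1.01. The mitochondrial share kept ratios of 1.08 and 1.09 in non-cycling cells and of 1.14 and 1.09 in mitotic cells. Each of these comparisons overlapped between ages (exact permutation p = 0.67 to 1). The part of the cycling cells, the B and plasma cell markers and the platform in the whole-pool shares was not tested beyond these values.

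**Figure D1:**
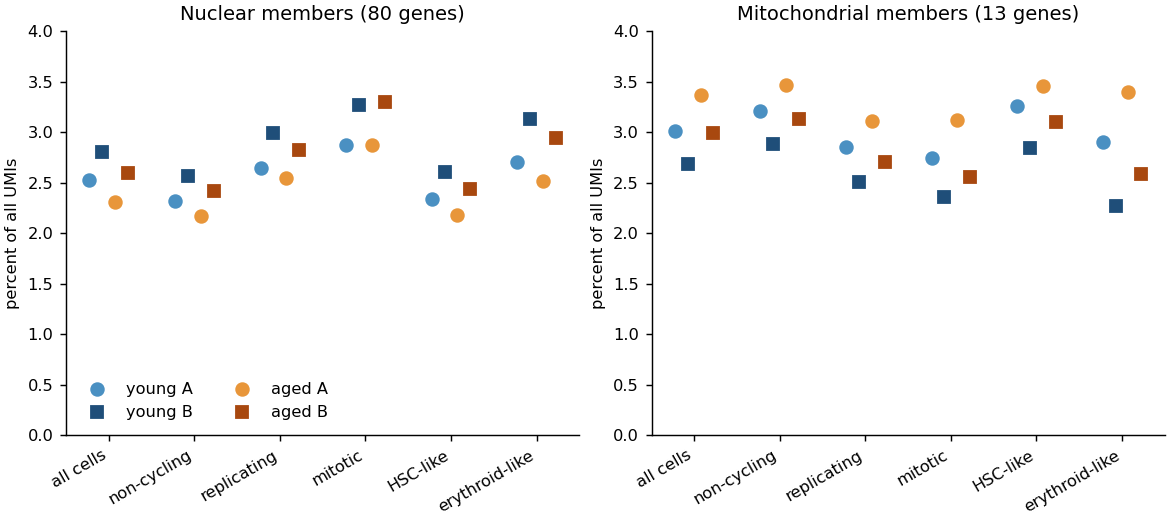
Percent of all UMIs (y axis) held by the 80 nuclear genes (left) and the 13 mitochondrial genes (right) in all cells, in non-cycling, replicating and mitotic cells, and in HSC-like and erythroid-like cells (x axis). Each point is 1 pool (circles platform A, squares platform B, blue young, orange aged). The nuclear share is higher in mitotic cells (2.87% to 3.30%) than in non-cycling cells (2.17% to 2.57%) and the mitochondrial share lower, while young and aged points overlap in every class.

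Gene by gene, no oxidative phosphorylation gene was called with age. Of 13555 genes tested over whole pools with edgeR's quasi-likelihood test (platform as a block, Benjamini-Hochberg adjusted p below 0.05), 275 were called, 2.03%, against 0 of 80 nuclear and 0 of 13 mitochondrial genes of the set. At an unadjusted p below 0.05 there were 1 nuclear and 2 mitochondrial genes. The share of all genes at that level is not given here, so nothing is drawn from these counts. DESeq2 called 2.75% of all genes and 0 of either kind as well. Log2 fold changes of the nuclear genes were mostly small and negative, with a median of -0.17 and 76 of 80 below 0, where all tested genes had a median of 0.01. With SEs of 0.156 to 1.01 (median 0.198), single changes of that size were not detectable. Both aged pools lay below both young pools for 25 of 80 nuclear genes, where 13.6% of all genes did so, and above them for 1, where 18.1% did so. Within platforms, 45 of 80 nuclear genes were lower with age on both and 4 were higher on both, where 24.6% and 35.8% of all genes were. The lean was not particular to this set. Median age changes were -0.16 for cytosolic and -0.15 for mitochondrial ribosomal protein genes and -0.14 for the citric acid cycle list described below. Lists of electron carriers, assembly factors and regulators of mitochondrial gene expression had medians of -0.07, -0.02 and 0.01.

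The downward lean of the nuclear genes rested on which pools were in the fit. It stood at a median of -0.33 without young pool A and -0.42 without aged pool B, but at 0.00 without young pool B and at 0.05 without aged pool A, where 40 and 51 of 80 genes changed sign. Those fits hold 3 pools and no platform block, so a difference between platforms enters them. Within each platform the medians of aged minus young were -0.12 on A and -0.11 on B on the log2(CPM + 1) scale, where all genes had 0.12 and 0.00. Scaling by library size alone gave -0.12 over both platforms, with 68 of 80 genes below 0, while the median of all genes moved to 0.07.

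Complex I genes had a median change of -0.13 with age, with 35 of 36 below 0. Ndufa4 stood at 822 and 941 CPM (young A, B) and 521 and 726 CPM (aged A, B), both aged pools below both young pools, a log2 fold change of -0.57 (SE 0.24, adjusted p = 0.354). Ndufa1, an accessory subunit encoded on X, stood at 127 and 164 CPM (young A, B) and 125 and 114 CPM (aged A, B) (-0.33, adjusted p = 0.502). Ndufa13, another accessory subunit, was nearly level at 365 and 394 CPM (young A, B) and 357 and 401 CPM (aged A, B). Summed over the 36 genes, complex I held 8027 and 9125 CPM (young A, B) and 7434 and 8429 CPM (aged A, B), which overlapped.

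Complex II, which also works in the citric acid cycle as succinate dehydrogenase, had all 4 genes below 0 (median -0.20). Sdhd, a membrane anchor, stood at 146 and 114 CPM (young A, B) and 130.1 and 90.1 CPM (aged A, B) and overlapped between ages, with a log2 fold change of -0.31 (SE 0.16, adjusted p = 0.475). Sdha, the flavoprotein, stood at 172 and 141 CPM (young A, B) and 178 and 124 CPM (aged A, B). Sdhb, the iron-sulfur subunit, was at 177 and 190.2 CPM (young A, B) and 153 and 164 CPM (aged A, B), with both aged pools below both young ones. Summed complex II levels were 604 and 553 CPM (young A, B) and 564 and 479.5 CPM (aged A, B).

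Complex III genes were all 8 below 0, with a median of -0.13. Uqcrh, the hinge protein, stood at 851 and 889 CPM (young A, B) and 703 and 923 CPM (aged A, B), the highest and the lowest both in aged pools. Uqcrfs1, the Rieske iron-sulfur protein, had 220.2 and 183 CPM (young A, B) and 173 and 180.1 CPM (aged A, B), both aged pools below both young ones (-0.24, SE 0.21). Uqcrc2, a core protein, had 197 and 218 CPM (young A, B) and 172 and 195 CPM (aged A, B) (-0.23) and Uqcrb 504 and 608 CPM (young A, B) and 494 and 561 CPM (aged A, B) (-0.12).

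Complex IV genes had a median of -0.19, with 13 of 15 below 0. Cox4i2, the isoform of subunit 4 known from lung and from low oxygen, had the lowest adjusted p of the nuclear genes and was at 6.69 and 9.88 CPM (young A, B) and 5.39 and 5.62 CPM (aged A, B), a log2 fold change of -0.62 (SE 0.21, adjusted p = 0.245). Its values did not overlap between ages. Cox5a, a subunit beside the catalytic core, stood at 384 and 409 CPM (young A, B) and 255 and 386 CPM (aged A, B), where aged pool A was the low one and aged pool B reached the young level (-0.39, SE 0.24). Cox4i1, the common isoform of subunit 4, was level at 1035 and 1063 CPM (young A, B) and 1042 and 1129 CPM (aged A, B) (0.00, SE 0.24), and Cox8a overlapped between ages at 947 and 1063 CPM (young A, B) and 824 and 1036 CPM (aged A, B).

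Complex V genes had a median of -0.21, with 16 of 17 below 0, and its summed nuclear level was 7293 and 7945 CPM (young A, B) and 6357 and 7167 CPM (aged A, B), which did not overlap. The nuclear sums of the other complexes overlapped between ages in whole pools. In non-cycling cells the complex V sum was 6477 and 7018 CPM (young A, B) and 5873 and 6540 CPM (aged A, B). The ages overlapped there, as they did in mitotic cells. Atp5b, the catalytic beta subunit, stood at 814 and 798 CPM (young A, B) and 683 and 715 CPM (aged A, B), lower in both aged pools (-0.26, SE 0.23, adjusted p = 0.677). Atp5o, a stalk subunit, had 339 and 346 CPM (young A, B) and 273 and 286 CPM (aged A, B), again without overlap (-0.34, adjusted p = 0.504). Atp5f1, the b subunit of the stalk, stood at 443 and 473 CPM (young A, B) and 315 and 442 CPM (aged A, B), where aged pool A alone was well below the rest, and Atp5l at 717 and 830.5 CPM (young A, B) and 641 and 755 CPM (aged A, B), where the ages overlapped.

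Mitochondrial genes moved in both directions, with 8 of 13 below 0 and a median of -0.06. Within platforms, 5 of 13 were lower with age on A and 8 on B. Their medians of aged minus young on the log2(CPM + 1) scale were 0.09 on A and -0.11 on B. All tested genes had 0.12 and -0.005. On platform B the larger summed share was therefore not a rise of most of these genes. Mitochondrial transcripts come from shared precursors and mt-Atp8 overlaps mt-Atp6 as mt-Nd4l overlaps mt-Nd4, so counts of these neighbours are uncertain, and the genome holds nuclear copies of mitochondrial sequence. The lowest adjusted p was that of mt-Atp8, a membrane subunit of ATP synthase, at 23.4 and 36.8 CPM (young A, B) and 20.2 and 15.7 CPM (aged A, B), a log2 fold change of -0.77 (SE 0.25, adjusted p = 0.234). Both aged pools lay below both young pools. mt-Nd2, of the proton pumping arm of complex I, stood at 576 and 591 CPM (young A, B) and 303 and 458 CPM (aged A, B) with no overlap between ages (-0.70, adjusted p = 0.289).

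mt-Cytb, the only complex III subunit of that genome, had the largest log2 fold change in the other direction, smaller than its SE (0.23, SE 0.28, adjusted p = 0.775, edgeR). It stood at 2987 and 2938 CPM (young A, B) and 4100.0 and 3144 CPM (aged A, B), both aged pools above both young pools. For mt-Co3 the levels were 6369 and 5992 CPM (young A, B) and 7902 and 7025 CPM (aged A, B), again without overlap (0.22). Of the 13 mitochondrial genes, 2 had both aged pools below both young pools and 2 had both above. Of all tested genes, 13.6% lay below and 18.1% above in this way. The absence of overlap in these mitochondrial genes is therefore not read as particular to the set. mt-Co1, the catalytic subunit of complex IV, stood at 5736 and 4209 CPM (young A, B) and 5289.7 and 5771 CPM (aged A, B), where young pool B was the low one. mt-Co2, which takes up electrons from cytochrome c, ranged over 2852 to 3184 CPM with the ages overlapping, as did mt-Atp6 (6503 to 9066 CPM), mt-Nd1 (1675 to 2125 CPM), mt-Nd4 (1225 to 1609 CPM), mt-Nd5 (147 to 190.3 CPM) and mt-Nd6 (6.25 to 8.01 CPM). mt-Nd3 stood at 143 and 252 CPM (young A, B) and 147 and 117 CPM (aged A, B), with young pool B high and the others close together.

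In 3 genes the pools divided along read depth and pool size instead of age, with young pool B and aged pool A both over 1.2 times young pool A and aged pool B. Atp5k, the e subunit of ATP synthase, stood at 108 and 309.8 CPM (young A, B) and 228 and 149 CPM (aged A, B). Ndufa3, a small accessory subunit of complex I, had 175 and 357 CPM (young A, B) and 315 and 209 CPM (aged A, B), and mt-Nd4l 45.1 and 75.9 CPM (young A, B) and 105 and 42.4 CPM (aged A, B). The higher pools in each case were the deeper ones and also those of 3 mice, so that depth and the number of mice cannot be told apart, and their age changes (-0.04, -0.01 and 0.14) carried SEs of 0.50, 0.39 and 0.47, among the widest of the set. Ndufa3 was named after its values were seen. How many of all tested genes show this pattern was not counted, so it is not read as particular to this set.

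**Figure D2:**
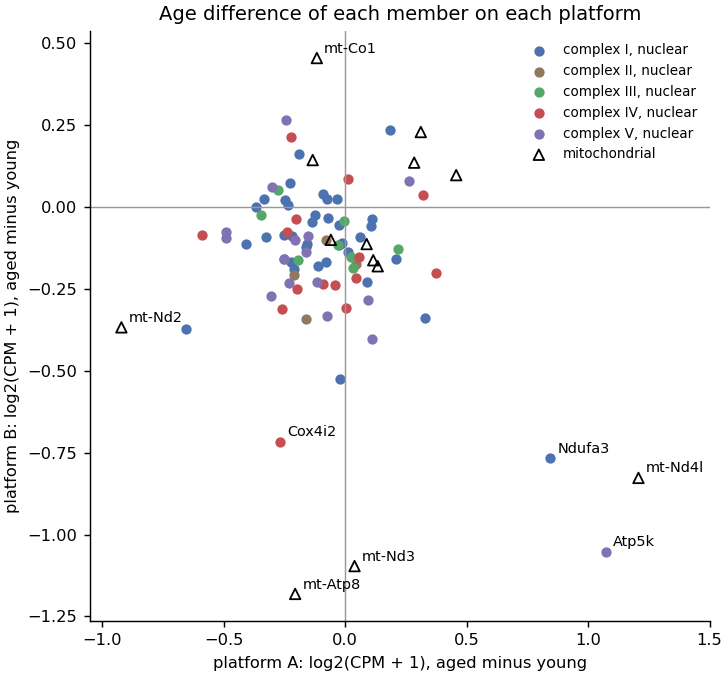
Aged minus young on the log2(CPM + 1) scale, on platform A (x axis) and platform B (y axis), 1 point per gene, coloured by complex for nuclear genes and as open triangles for mitochondrial genes. Most nuclear genes sit near the origin, 45 of 80 below 0 on both axes, and Atp5k, Ndufa3 and mt-Nd4l stand apart at the lower right, higher with age on platform A and lower on platform B.

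Within cell classes the age comparison gave the same count. In non-cycling cells, 3.1% of 12964 genes were called and 0 of 79 nuclear genes of the set (median -0.11, 67 below 0). HSC-like cells were those with at least 4 of 8 stem cell markers (Procr, Mecom, Hlf, Mllt3, Meis1, Fgd5, Hoxb5 and Ctnnal1) and no lineage list. In them 0.682% of 11875 genes were called and 0 of 79 nuclear genes (median -0.10, 62 below 0). In each class 1 nuclear gene lay at an unadjusted p below 0.05. Whether the age difference itself differed between cycling and non-cycling cells was tested with an interaction term, which called 0.7% of 12999 genes and 0 of 80 nuclear genes (2 at an unadjusted p below 0.05, median -0.004). The share of all genes at an unadjusted p below 0.05 is not given for these tests either. No mitochondrial gene was called in any of these tests, all by edgeR.

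Between cycling classes, most nuclear genes of the set passed the test. Cells with at least 3 of 10 mitotic markers (Top2a, Birc5, Cdc20, Hmmr, Cenpf, Ube2c, Ccnb1, Aurka, Plk1 and Mki67) were called mitotic, other cells with at least 4 of 10 replication markers (Uhrf1, Mcm3, Mcm5, Mcm6, Gins2, Pcna, Tipin, Ung, Rrm2 and Clspn) replicating, and the rest non-cycling. No gene of the set was used to call them. Mitotic cells numbered 832 and 255 (young A, B) and 232 and 378 (aged A, B). Against non-cycling cells of the same pools, 66 of 79 nuclear genes were higher and 4 lower (edgeR's quasi-likelihood test with pool as a block), where 27.0% of 12405 genes were called higher and 31.7% lower. Their median log2 fold change was 0.40, against -0.07 for all genes. CPM was above that of non-cycling cells in all 4 pools for 68 nuclear genes, a pattern that was not counted over all genes. Mitochondrial genes leaned the other way, with 1 of 13 higher and 7 lower and a median of -0.16.

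The mitotic cells were also deeper. Per cell they held 1.88 and 2.05 times the UMIs of non-cycling cells (young A, B) and 1.70 and 1.69 times (aged A, B). UMIs of the nuclear genes per cell were 2.34 and 2.61 times those of non-cycling cells (young A, B) and 2.24 and 2.31 times (aged A, B), above the total in every pool. For the mitochondrial genes the ratios were 1.61, 1.68, 1.53 and 1.38, below the total in every pool but still over 1. With each cell thinned to 3000 UMIs before classes were called, 63 nuclear genes were higher and 4 lower. In that setting 49.5% of all genes were called in either direction. Thinning served only to call the classes. The tested counts kept their full depth, so this setting does not compare cells at equal depth. In thinned cells of a pool, mitochondrial UMIs fell with the full UMI count of the cell (Spearman's rho -0.33 to -0.28) and nuclear ones rose (0.08 to 0.37). Among non-cycling cells alone rho was -0.21 to -0.19 for mitochondrial and -0.11 to 0.17 for nuclear genes. The part of depth in the class differences was not tested. Among cells that met no lineage list, an alternative added after the data were seen, 61 of 78 were higher and 4 lower, where 46% of all genes were called in either direction. The mitochondrial genes there had 1 of 13 higher and 8 lower, but in aged pool A their share was 3.58% in mitotic and 3.53% in non-cycling cells, so that the lower share held in the other 3 pools only. In the main mitotic fit, cytosolic ribosomal protein genes moved against the nuclear genes of the set, with 4 of 80 higher and 64 lower. Ribosomal protein genes, by a somewhat different match of symbols, held 28.4% to 36.2% of all UMIs of a pool. A share of UMIs falls for one group when it rises for another.

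**Figure D3:**
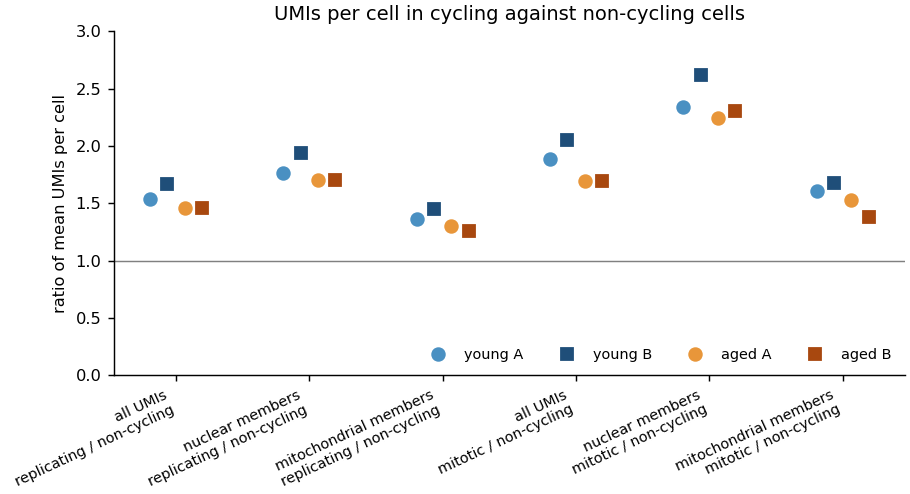
Ratio of mean UMIs per cell (y axis), replicating or mitotic over non-cycling cells of the same pool, for all UMIs, the nuclear genes and the mitochondrial genes (x axis). Each point is 1 pool, and the line marks a ratio of 1. In mitotic cells the nuclear ratio (2.24 to 2.61) lies above the total (1.69 to 2.05) and the mitochondrial ratio (1.38 to 1.68) below it in each pool.

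In mitotic cells the largest increase was that of Cox6b2 (ENSMUSG00000051811, chr7:4751792-4753094), known as the testis isoform of a complex IV subunit, whose upstream stretch is printed first above. It went from 73.2 and 71.8 CPM (young A, B) and 73.6 and 77.4 CPM (aged A, B) in non-cycling cells to 169, 179, 162 and 164 CPM in mitotic cells, in the same order of pools. The lowest mitotic value lay far above the highest non-cycling one, and the fold was 2.28 (a log2 fold change of 1.19 (SE 0.06, adjusted p = 1.43e-12)).

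Cox5a (ENSMUSG00000000088, chr9:57521274-57532426) followed, from 278 and 293 CPM (young A, B) and 212 and 313 CPM (aged A, B) to 535, 624, 423 and 646 CPM, 2.03-fold (a log2 fold change of 1.02 (SE 0.04, adjusted p = 1.23e-13)). Aged pool A was the lowest pool in each class, and every pool rose. Cox7a2, a small subunit of complex IV, rose from 289, 339, 279 and 298 CPM to 489.6, 611, 496 and 578 CPM (0.85, adjusted p = 3.58e-12). Over complex IV, 10 of 14 nuclear genes were higher and 1 lower. Cox4i1 was not called at all (-0.02, SE 0.04), with 1046, 1081, 1046 and 1122 CPM in non-cycling and 1025, 1061, 980.1 and 1174 CPM in mitotic cells. Cox6a1 stood at 293, 367, 315 and 318 CPM in non-cycling and 448, 515, 579 and 546 CPM in mitotic cells, with an increase in each pool (0.69, SE 0.06, adjusted p = 2.23e-09).

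Genes of the other complexes rose by less than Cox6b2 and Cox5a. For complex I, 32 of 36 were higher and 1 lower. Ndufa4 led them, at 634, 743, 448 and 626 CPM in non-cycling and 1139, 1335, 814 and 1118 CPM in mitotic cells (young A, B, then aged A, B) (0.85, adjusted p = 1.85e-12). Ndufa6, an accessory subunit, fell by 0.27 on the log2 scale (SE 0.04, adjusted p = 2.72e-05). For complex II, Sdhb, Sdhc and Sdhd rose and Sdha was not called (0.07, SE 0.05). For complex III, 6 of 8 were higher, Uqcrq and Uqcr10 (both named after their values were seen) by 0.77 and 0.72, and Uqcrh was lower. For complex V, 15 of 17 were higher, led by Atp5g3, which encodes the c subunit of the rotor, at 0.77, and Atp5o at 0.74. Catalytic Atp5b rose from 716, 702, 629 and 645 CPM to 941, 963, 857 and 959.7 CPM (0.47, SE 0.04).

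The 4 nuclear genes that fell were Cox7a2l, Atp5sl, Ndufa6 and Uqcrh. Cox7a2l (ENSMUSG00000024248, chr17:83501918-83517330) went from 1028 and 936 CPM (young A, B) and 810.5 and 1009 CPM (aged A, B) in non-cycling cells to 680.2, 602, 525 and 655 CPM in mitotic cells, lower in each pool by a wide margin (a log2 fold change of -0.62 (SE 0.04, adjusted p = 5.03e-10)). Uqcrh (ENSMUSG00000063882, chr4:116066965-116075071), whose upstream stretch holds the ETS-type letters near its end, went from 929, 959.6, 730.3 and 956 CPM to 746, 784, 618 and 834 CPM, a smaller fall in each pool (-0.26, adjusted p = 1.71e-05). Atp5sl stood at 26.9, 34.6, 31.5 and 34.1 CPM in non-cycling and 23.1, 21.2, 17.5 and 21.2 CPM in mitotic cells (-0.53, adjusted p = 4.89e-04).

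Among the mitochondrial genes, mt-Co1 (ENSMUSG00000064351, chrM:5328-6872) fell most, from 6646 and 4869 CPM (young A, B) and 5761 and 6390.4 CPM (aged A, B) in non-cycling cells to 4426, 3075, 3270.3 and 3582 CPM in mitotic cells, with every mitotic value below every non-cycling one (a log2 fold change of -0.72 (SE 0.05, adjusted p = 4.42e-10)). mt-Nd5, of the proton pumping arm of complex I, fell from 195, 191, 199.7 and 157 CPM to 139, 123, 163 and 112 CPM (-0.47, adjusted p = 1.18e-06). Smaller falls were called for mt-Co3 (-0.27), mt-Co2 (-0.18), mt-Cytb (-0.17), mt-Nd4 (-0.16) and mt-Atp6 (-0.14). Of these, mt-Nd4 lost its call without young pool A or young pool B and mt-Cytb and mt-Atp6 without young pool B. mt-Nd1 (ENSMUSG00000064341, chrM:2751-3707) alone rose, from 1844, 1808, 1951 and 1620.5 CPM to 2149, 2002, 3059 and 1897 CPM, with aged pool A the highest (0.32, SE 0.06, adjusted p = 2.90e-04). mt-Nd2, mt-Nd3, mt-Nd4l, mt-Nd6 and mt-Atp8 were not called.

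**Figure D4:**
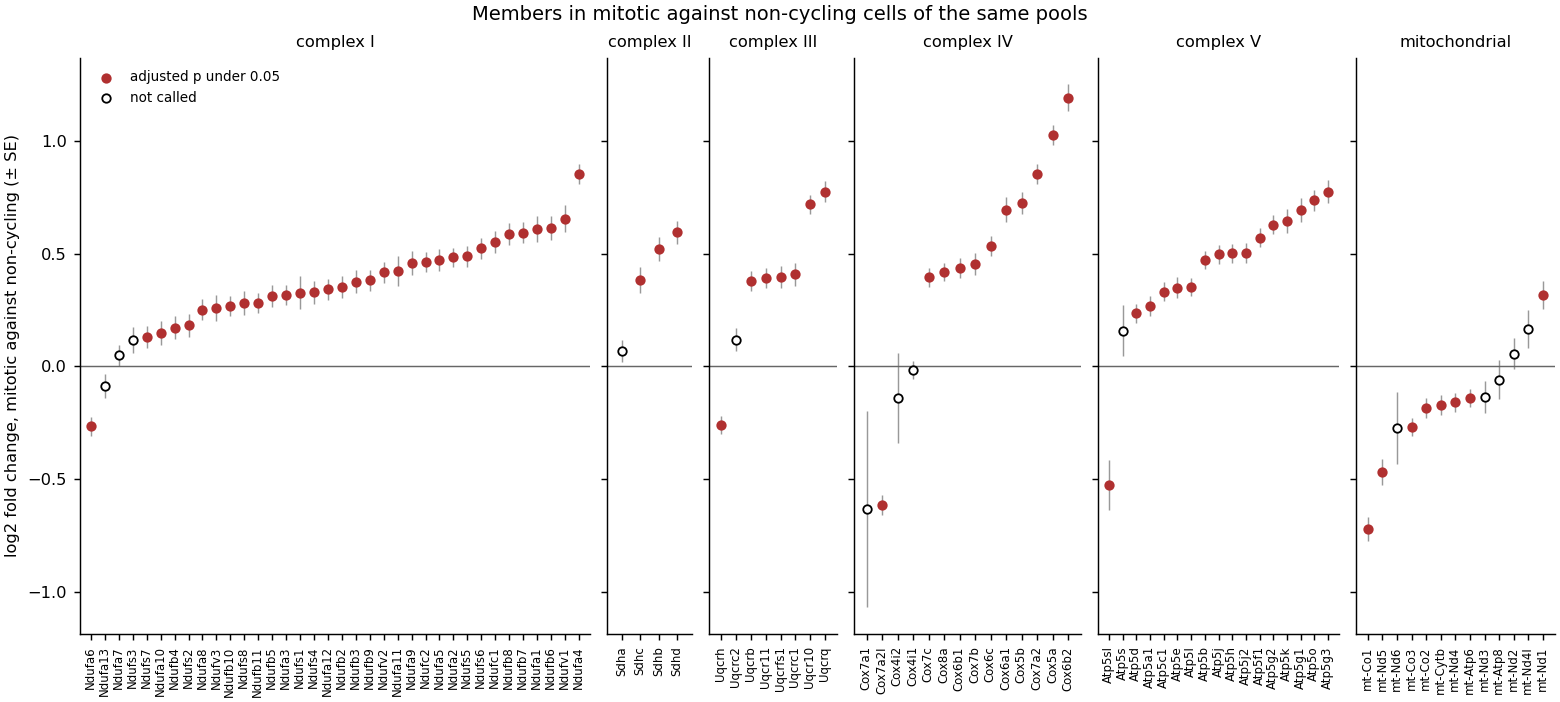
Log2 fold change of mitotic against non-cycling cells (y axis, bars are SE) for each gene of the set (x axis), by complex for nuclear genes and in the last panel for mitochondrial genes. Filled points passed the test (adjusted p below 0.05) and open points did not. Most nuclear genes lie above 0, up to Cox6b2 at 1.19, while Cox7a2l, Atp5sl, Ndufa6, Uqcrh and 7 mitochondrial genes passed below it.

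Replicating cells took a middle place. They numbered 398 to 1019 per pool, and 58 of 79 nuclear genes were higher and 4 lower than in non-cycling cells, where 19.7% of all genes were called higher and 22.4% lower (median 0.23, all genes -0.05). Cox5a (0.73, adjusted p = 9.72e-11), Atp5g1 (0.60) and Atp5g3 (0.55) rose most, and Cox7a2l (-0.44) fell most, followed by Atp5sl (-0.33) and Ndufa6 (-0.29). Of the mitochondrial genes, 7 were lower and 0 higher. The nuclear share of UMIs was 2.65% and 2.99% (young A, B) and 2.55% and 2.82% (aged A, B), between the shares of non-cycling and mitotic cells in each pool. Among cells of no lineage list, an alternative added after the data were seen, 39 nuclear genes were higher and 4 lower, where 31.2% of all genes were called in either direction.

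The 8 genes with NRF1-type letters (Atp5g2, Atp5k, Atp5l, Cox6a1, Ndufa11, Ndufa8, Uqcr11 and Uqcrc1) were each higher in mitotic cells, by 0.25 to 0.695 on the log2 scale. Among all 67 genes with a window, 57 were higher and 4 lower, so the 8 did not stand apart from the rest of the set by count. Of the 8 genes with YY1-type letters, 7 were higher and Atp5sl was lower. Of the 5 with ETS-type letters, 3 were higher and Uqcrh was lower. For Ndufa11, an accessory subunit of complex I at ENSMUSG00000002379, chr17:56717767-56722141, named after its values were seen, CPM went from 141, 160.3, 183 and 202 CPM in non-cycling to 203, 219, 228 and 263 CPM in mitotic cells (0.42, SE 0.07), higher in each pool.

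Several subunits of complexes IV and V have alternative isoforms or close relatives. UMI counts of the 3′ end are per molecule and were not divided by length, so levels are set side by side here as counts of captured ends only, and paralogs and processed pseudogenes can share reads. For subunit 6a, Cox6a1, the common isoform, stood at 349.7 and 423 CPM (young A, B) and 361 and 364 CPM (aged A, B), while Cox6a2, known from heart and muscle, was close to the limit of detection at 0.439, 0.183 and 0.866 CPM (young A, young B, aged A), with 1 UMI in aged B. Cox7a1, the heart and muscle isoform of subunit 7a, stood at 1.07 to 1.71 CPM and Cox7a2, the common one, at 315 to 415 CPM. For subunit 6b, Cox6b1 was at 534 and 606 CPM (young A, B) and 556 and 546 CPM (aged A, B) and testis-type Cox6b2 at 104 and 99.5 CPM (young A, B) and 87.8 and 94.3 CPM (aged A, B), the first overlapping between ages and the second not. The direction for Cox6b2 was not the same within classes. By the values given above, both aged pools lay above both young pools in non-cycling cells and below them in mitotic cells. Cox6b1 rose by 0.44 in mitotic cells (SE 0.04), where Cox6b2 rose by 1.19.

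The c subunit of the ATP synthase rotor comes from 3 nuclear genes that encode the same mature protein. Atp5g1 stood at 448 and 459 CPM (young A, B) and 376 and 412 CPM (aged A, B), Atp5g2 at 782 and 748 CPM (young A, B) and 556 and 710.3 CPM (aged A, B) and Atp5g3 at 229 and 225 CPM (young A, B) and 194 and 191 CPM (aged A, B). Both aged pools lay below both young pools for each of the 3, by -0.26, -0.33 and -0.28 on the log2 scale (adjusted p = 0.65, 0.623 and 0.559, edgeR), none called. In mitotic cells all 3 were higher, by 0.69, 0.63 and 0.77. Atp5j2, the f subunit, stood at 451 and 533 CPM (young A, B) and 417 and 455 CPM (aged A, B), where the ages overlapped. Ndufa4l2, a relative of Ndufa4, did not match the rule.

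**Figure D5:**
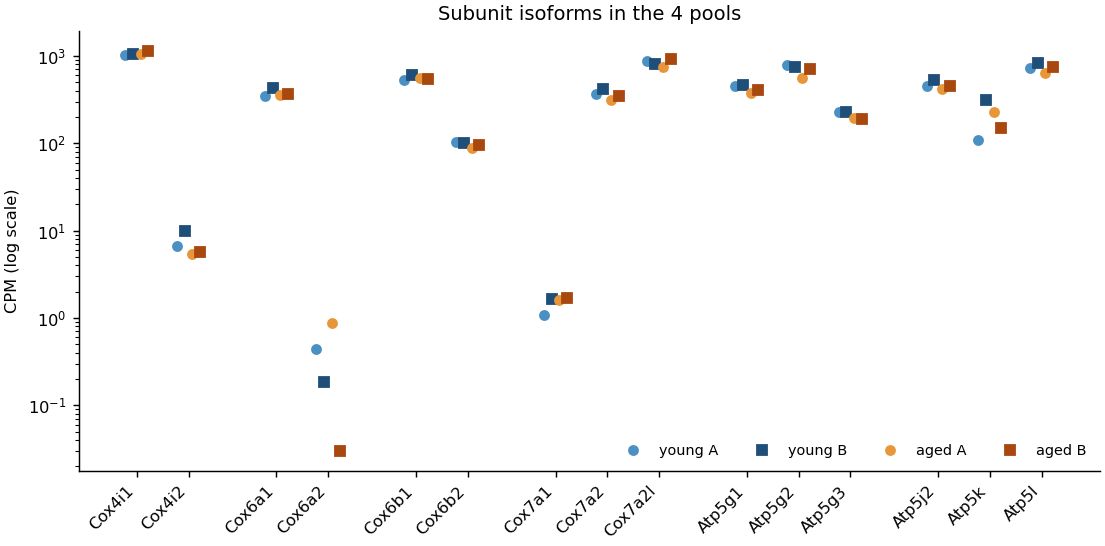
CPM on a log axis (y axis) of subunit isoforms and relatives (x axis). Each point is 1 pool (circles platform A, squares platform B, blue young, orange aged). Genes are grouped by subunit, except that Atp5j2, Atp5k and Atp5l stand together but encode different subunits of ATP synthase. Cox4i2, Cox6a2 and Cox7a1 lie at or under 9.88 CPM in every pool, and Atp5k spreads from 108 to 309.8 CPM, highest in young pool B and aged pool A.

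Cells starting along the erythroid lineage also differed from stem cells. Cells with at least 3 of 8 erythroid markers (Klf1, Gata1, Car1, Car2, Ermap, Aqp1, Icam4 and Rhd) and no other lineage list were called erythroid-like, 349 and 84 (young A, B) and 173 and 187 (aged A, B). Against HSC-like cells (597 to 1887 per pool), 50 of 78 nuclear genes were higher and 1 lower, where 15.2% of 10916 genes were called higher and 15.0% lower (edgeR's quasi-likelihood test, pool as a block, median 0.27 against -0.05 for all genes). Cox6b2 led again, at 69.7, 85, 69.2 and 75.6 CPM in HSC-like cells (young A, B, then aged A, B) and 187, 208, 158 and 159.7 CPM in erythroid-like cells, with no overlap (a log2 fold change of 1.26 (SE 0.09, adjusted p = 2.36e-09)). Atp5g1 rose by 0.80, Ndufa1 by 0.66, and Cox7a2l fell by 0.40. Of the mitochondrial genes, 1 was higher and 3 lower.

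The count was far smaller among cells outside the cell cycle, as was the share of all genes called. Mitotic markers summed to 633 and 739 CPM in erythroid-like cells (young A, B) and to 401 and 885 CPM (aged A, B), against 170 to 427 CPM in HSC-like cells. In non-cycling cells alone, an alternative added after the data were seen, 7 of 78 nuclear genes were higher and 0 lower. There 6.42% of all genes were called in either direction, against 30.2% with all cells. The nuclear median was 0.10, against 0.27 with all cells. Fewer cells entered, with 33 erythroid-like cells in young pool B. The part of cycling in the erythroid-like difference was not tested. The 7 genes called were Cox6b2, at 1.05 (2.07-fold, adjusted p = 1.61e-08), Atp5g1, Cox5a, Atp5b, Atp5o, Cox7c and Ndufa1. With all cells the count was 29 without young pool A and 25 without young pool B, where 16.5% and 21.3% of all genes were called. Aged pool A also held HSC markers at 1005 CPM in its erythroid-like cells, where the other pools had 282 to 641 CPM.

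Neutrophil-like cells (at least 3 of Mpo, Elane, Prtn3, Ctsg, Ms4a3, Cebpe, Fcnb and Gfi1) had 30 of 78 nuclear genes higher and 1 lower than HSC-like cells, where 7.68% of genes were called higher and 4.49% lower, led by Ndufa4 (0.78), Cox5a (0.75) and Ndufa1 (0.54), with Cox7a2l lower (-0.34). This count was unstable. It fell to 5 without young pool A and 4 without young pool B and rose to 47 without aged pool A. The share of all genes called moved along, at 3%, 4.23% and 15.5% in these fits, against 12.2% with all pools. The neutrophil-like cells of aged pool A held HSC markers at 1284 CPM, against 400.0 to 646 CPM in the other pools. Mitotic markers summed to 780 and 504 CPM in neutrophil-like cells (young A, B) and to 248 and 1127 CPM (aged A, B), against 318, 427, 170 and 183 CPM in HSC-like cells, higher in every pool. Aged pool B gave 38 neutrophil-like cells, and only 10 of them were non-cycling, too few for a test without cycling cells. Megakaryocyte-like cells (at least 3 of Pf4, Gp1bb, Gp9, Gp6, F2rl2, Plek, Itga2b and Gp5) had Cox6b2 higher (0.41, adjusted p = 0.0112, edgeR) and Cox7a2l lower (-0.30, adjusted p = 0.0298, edgeR) of 78 nuclear genes, where 3.79% of genes were called higher and 1.69% lower. Neither was called among non-cycling cells or without young pool A or young pool B. Mast and basophil-like cells numbered 19 in young pool B and 3 in aged pool B and were not tested.

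The genes around the respiratory chain, in lists drawn up by function with earlier results of these data known, were likewise not called with age, with 0 calls in every list (edgeR). In mitotic cells they moved unevenly, and the counts that follow stand beside the 27.0% of all genes called higher and 31.7% called lower. Mitochondrial ribosomal protein genes, which serve the translation of the 13 mitochondrial messages, had 57 of 76 higher and 2 lower. Genes of the citric acid cycle, which feeds the chain, were listed together with those of pyruvate uptake, pyruvate dehydrogenase and its kinases. Of this list, 16 of 23 were higher and 3 lower (Idh3b, of the cycle, and the kinases Pdk1 and Pdk2). Idh3a, a subunit of isocitrate dehydrogenase, was at 0.83 (SE 0.06). Of the kinases that inhibit pyruvate dehydrogenase, Pdk1 (-0.48) and Pdk2 (-1.15) were lower and Pdk3 was higher (0.30, SE 0.07, adjusted p = 0.0014), and Pdk4 was too low to be tested. Electron carriers and exchangers had 14 of 23 higher and 2 lower. Cycs, cytochrome c itself, stood at 91.4 and 211 CPM (young A, B) and 150.3 and 119 CPM (aged A, B) and rose by 1.24 (SE 0.06, adjusted p = 3.74e-12) in mitotic cells. Of the 2 ADP/ATP carriers listed, Slc25a5 rose by 1.001 (SE 0.04, adjusted p = 1.74e-13) and Slc25a4 fell by 0.45 (SE 0.05, adjusted p = 4.08e-07).

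Assembly factors of the complexes were more mixed, with 16 of 43 higher and 5 lower. Among the higher ones were Coa3, of complex IV, at 0.21 and Cox17, a copper chaperone, at 0.22, and Surf1, of complex IV, was lower (-0.35, adjusted p = 0.000265). Regulators of mitochondrial gene expression had 9 of 23 higher and 6 lower. Tfam, which packages and transcribes mitochondrial DNA, rose by 0.30 (SE 0.06), Nrf1 by 0.53 (SE 0.08) and Gabpa by 0.52 (SE 0.12). Of the coactivators of the PGC-1 family, Pprc1 rose by 0.47 (SE 0.15, adjusted p = 0.00941). Ppargc1a (-1.73, SE 0.35, adjusted p = 0.000327) and Ppargc1b (-0.40, SE 0.16, adjusted p = 0.0402), of the same family, and the receptor Esrra (-0.36, SE 0.15, adjusted p = 0.0499) fell, all at low levels, with Ppargc1a at 1.77 to 4.43 CPM over whole pools.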

How the data were processed

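Single HSPC transcriptomes of 4 pools were analysed. Per the labels and the study's methods, the authors made the deposited counts, raw UMI counts per gene and barcode, with Cell Ranger 2.2.0 on GRCm38.p4 (mm10), and this build is that of the coordinates here, taken from GENCODE M21. The annotation release used for counting is not named in the sources used here.

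The set and all gene lists were chosen with earlier results of these data known. Per pool, cells whose log UMI count lay beyond 2 SD of the mean were dropped, 93 to 242 in each. Cell classes were called from marker lists at 1 UMI or more per marker. No doublet caller was run, and cells meeting 2 or more lineage lists were left out as an alternative. Counts were summed per pool, or per pool and class with at least 20 cells, and tested with edgeR 4.0.16 (R 4.3.3, quasi-likelihood test, TMM scaling, filterByExpr, Benjamini-Hochberg adjustment over all tested genes, threshold 0.05). DESeq2 1.42.0 was the alternative. Age fits had the platform letter as a block and class fits the pool. The letter marks a shared facility, and departures from the age mean correlated between same-letter pools at 0.488 over 13555 genes. Replicates are pools of different mice, 2 per age. In the age fits, p-values rest on the spread left between the 4 pools once platform and age are fitted. That leaves little for a single gene, and edgeR borrows much of it from other genes. In the class fits, which block on pool, p-values measure how class differences vary from pool to pool and not the spread between pools. CPM is UMIs scaled to 1000000 per pool or class, and intervals are not given, so SEs carry the precision. For edgeR these SEs were worked back from the log2 fold change and the F statistic of its test. The tests were also run on simulated data with known changes.

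Genes were named by a rule: all mitochondrial genes, the 2 highest and the 2 most changed with age in each complex, isoform sets, and for class contrasts the 3 most changed called nuclear genes each way. Other genes were named after their values were seen. Listed pathway symbols without a match (Atp5mpl, Coq8a, Coq8b, Ndufaf8 and Twnk) were left out. Promoter letters come from RefSeq windows (GRCm38.p6). Protein sequences were not used here. Python 3.11.15, pandas 2.3.3, scipy 1.17.1 and matplotlib 3.10.9 were used.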

Additional observations from a re-analysis of the deposited data

How the results depend on the processing

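No nuclear or mitochondrial gene was called with age in whole pools by DESeq2, with library size alone, with no filter on low counts or with all barcodes. Of all genes, these settings called 2.75%, 0.546%, 4.07% and 2.54%, in that order. With library size alone few genes were called at all, so the absence of calls there says little. Fits with 1 pool left out hold a single pool of an age, so no calls are read from them. Without a replicate block for the platform, 0 of all tested genes were called in whole pools, against 2.03% with it, and 0 nuclear and 0 mitochondrial genes either way, in whole pools, HSC-like cells and non-cycling cells. In whole pools the nuclear median was -0.15 without the block. The aged minus young difference in nuclear share (-0.219 percentage points) ranged from -0.362 to -0.076 with 1 pool left out, and that in mitochondrial share (0.335) from 0.147 to 0.523. With all barcodes the differences were -0.284 and 0.348, and the ages no longer overlapped for either share. Calls in mitotic cells numbered 69 to 72 with 1 pool left out (70 with all) and in replicating cells 56 to 64 (62 with all). Of all genes, 50.4% to 53.5% (58.7% with all pools) and 32.8% to 37.5% (42.2%) were called there. Lineage counts moved most. Erythroid-like calls (51 in all) ranged from 25 to 54 with 1 pool left out and fell to 7 among non-cycling cells, where fewer cells entered. The share of all genes called moved too, from 30.2% to between 16.5% and 26.6% with 1 pool left out and 6.42% among non-cycling cells. Neutrophil-like calls (31) ranged from 4 to 47 with 1 pool left out. They were 50 with all barcodes, 60 with 1 more marker per class and 63 with classes called at 3000 UMIs per cell. Of all genes, 12.2% were called in the main fit and 3% to 15.5% with 1 pool left out. In the other settings 18%, 26.5% and 33.1% were, in the same order, and the cause was not tested. Megakaryocyte-like calls (2) ranged from 0 to 13 with 1 pool left out, where 0.733% to 5.91% of all genes were called (5.48% with all pools). They were 5 by DESeq2 (2.59% of all genes), 4 with library size alone (5.62%), 1 with all barcodes (4.54%) and 0 among non-cycling cells (0.353%). A stricter marker rule and the 3000 UMI classes left too few cells. Leaving the mitochondrial genes out of the scaling gave no mitochondrial value. For named genes, 704 planned values kept their direction and side of the threshold, 19 lost and 3 gained a call, and 44 moved, each an uncalled gene that changed sign. Settings added after the data were seen gave 26, 3, 1 and 1 such values. The age tests are limited by 2 pools per age. Even changes well above their SE were not called, such as that of mt-Atp8 (-0.77, SE 0.25, adjusted p = 0.234, edgeR).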

Other observations

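Within single cells thinned to 3000 UMIs, UMIs of the nuclear and of the mitochondrial genes went in opposite directions. Spearman's rho across cells was -0.29 and -0.26 (young A, B, 5189 and 2194 cells) and -0.19 and -0.27 (aged A, B, 3152 and 4150 cells). Among non-cycling cells alone it was -0.17 and -0.13 (young A, B) and -0.10 and -0.11 (aged A, B), nearer 0 in every pool. The median cell held 72 and 79 nuclear and 92 and 82 mitochondrial UMIs of the set (young A, B), against 67 and 74 nuclear and 99 and 92 mitochondrial UMIs (aged A, B). The cells of a pool share 1 library and the 2 counts share 1 fixed total, so these values describe the pools and carry no test.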
